A study of Homo sapiens with 6 samples.

Results

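The loci of 9 autosomal genes that normally act in germ cells were followed in Hi-C maps of 2 somatic cancer cell lines. The second line derives from the first and has 2 DNA methyltransferase genes disrupted. The genes were DAZL, SYCP1, SYCP3, MAEL, BRDT, DDX4, PIWIL1, TDRD1 and STRA8. All 9 were chosen by name, with their start positions on the human build hg19, and not by any measured value. Earlier results of these data were known when the choice was made. For each gene the 20 kb bins lying within 200 kb of its start were taken, which gave 21 bins per gene and 189 in all, out of 133051 autosomal bins and 140474 bins over all chromosomes.

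Hi-C joins and sequences DNA ends that lie close together in the nucleus, and the series holds 6 such libraries. HCT116, an established human colorectal cancer line labelled as wild type, gave 3 of them. DKO1, derived from HCT116 by disruption of DNMT1 and DNMT3B, gave the other 3. Both lines grew in the same medium without a further treatment, and DKO1 is 1 derived line, so the knockout and other differences between the lines cannot be told apart. The labels point all 3 replicates of a line to 1 compartment track and 1 domain list, which were taken as pooled. Replicate error is therefore not known, nothing could be tested between the lines, and every difference below is one between 2 maps. The depth of the maps is unknown, since the files used here hold no read counts. Neither expression nor DNA methylation was analysed here, so no locus could be checked against the activity of its gene.

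Germline genes are a textbook class of genes held silent in somatic cells by methylation of their promoters, and some of them become active when that methylation is lost. They serve the pairing of chromosomes in meiosis, the entry into meiosis, and the defence of the germ line against transposons by small RNAs bound to PIWI proteins (the piRNA pathway). In Hi-C maps, the first principal component of the contacts (PC1) divides a chromosome into an open, gene-rich compartment A and a closed compartment B. Domains are stretches that contact themselves more than their surroundings. In this report a positive PC1 stands for A and a negative one for B. PC1 is taken to be in units of the SD over the bins of the same chromosome.

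The promoters of these genes differ widely in CpG dinucleotides, the sites of DNA methylation. In the 250 bases before the start in RefSeq (GRCh38.p14), the 9 promoters held 0 to 51 CpG with a median of 14, against a median of 17 over 15841 protein-coding genes. The ratio of observed to expected CpG was at least 0.6 in 6 of 9 promoters and in 63.2% of all promoters. Shown here are the promoters of the genes whose surroundings had a negative PC1 in HCT116, with each CpG in capitals. All are given from 5′ to 3′ on the strand of the gene and end at the base before the start.
MAEL, chr1:166975332-166975581, plus strand: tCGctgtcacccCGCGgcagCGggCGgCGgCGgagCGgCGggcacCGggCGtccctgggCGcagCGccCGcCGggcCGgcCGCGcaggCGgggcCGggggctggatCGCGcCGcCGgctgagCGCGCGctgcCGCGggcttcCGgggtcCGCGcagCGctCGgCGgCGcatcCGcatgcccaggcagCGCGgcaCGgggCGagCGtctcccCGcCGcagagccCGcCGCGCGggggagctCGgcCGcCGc
STRA8, chr7:135231665-135231914, plus strand: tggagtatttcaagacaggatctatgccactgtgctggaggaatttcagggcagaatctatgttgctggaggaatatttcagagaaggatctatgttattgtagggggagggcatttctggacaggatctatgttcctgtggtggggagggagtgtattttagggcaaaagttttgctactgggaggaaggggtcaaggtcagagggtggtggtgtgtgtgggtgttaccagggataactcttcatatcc
DAZL, chr3:16605424-16605673, minus strand: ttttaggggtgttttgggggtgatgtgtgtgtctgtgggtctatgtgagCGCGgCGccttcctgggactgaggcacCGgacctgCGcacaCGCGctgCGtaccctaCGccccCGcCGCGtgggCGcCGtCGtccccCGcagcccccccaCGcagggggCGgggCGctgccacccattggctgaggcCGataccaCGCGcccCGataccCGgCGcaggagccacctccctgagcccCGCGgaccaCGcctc
PIWIL1, chr12:130337637-130337886, plus strand: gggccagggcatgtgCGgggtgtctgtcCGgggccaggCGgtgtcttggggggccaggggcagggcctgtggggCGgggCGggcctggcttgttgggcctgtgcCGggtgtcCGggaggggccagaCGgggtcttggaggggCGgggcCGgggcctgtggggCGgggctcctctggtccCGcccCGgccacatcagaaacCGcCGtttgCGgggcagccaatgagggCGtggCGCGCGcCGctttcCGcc
The MAEL promoter held 51 CpG, more than 99.9% of promoters, and the STRA8 promoter held 0. DAZL had 28 CpG and PIWIL1 had 22. Of the others, SYCP3 had 19, BRDT 14, TDRD1 13, SYCP1 8 and DDX4 0. The DDX4 promoter of the table lies 28.8 kb from the outer end of the gene, so it is not the promoter at the start used here. For TDRD1 that distance is 4.41 kb, for SYCP1 0.775 kb, and for the other genes 0. The median and the counts over the 9 promoters include the DDX4 stretch. The letters TCCCGC, a core of sites for E2F-type factors that are known at promoters of germline genes, were searched on both strands. They occurred in 2 of 9 promoters, those of SYCP3 and PIWIL1, and in 30.6% of all promoters. A match describes the letters only.

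The surroundings of these genes were divided into 2 kinds by the sign of their mean PC1 in HCT116. In the 200 kb windows of the scores as deposited, the larger differences were at those that lay in B. Of the 9 windows, 5 had a positive mean PC1 in HCT116 (SYCP1, TDRD1, DDX4, BRDT and SYCP3) and 4 a negative one (STRA8, MAEL, DAZL and PIWIL1). SYCP3 lay close to 0, at 0.032, and its HCT116 mean was negative with 500 kb to each side (-0.095). The 5 positive windows differed between the lines by -0.17 to 0.12, with a median of 0.0083, and by -0.32 to 0.34 over the other windows and centrings. All 4 negative windows had a higher mean in DKO1, by 0.33 to 0.66, with a median of 0.44. They kept this direction in every alternative run, but not the larger size. After a 10 Mb running mean was subtracted, PIWIL1 (0.061) and STRA8 (0.097) differed less in size than SYCP1 and DDX4 (-0.32 each). With 500 kb to each side MAEL (0.15) differed less in size than BRDT (-0.24). Over all 9 the mean PC1 was lower in DKO1 in 2 windows, against 49.6% of the 131655 autosomal windows of the same width. A change above 0.5 was found in 1 window, that of DAZL, against 11.3% of autosomal windows. None of the 9 windows had a change below -0.5, against 12.5%. The MAEL window, at 0.49, lay just under this limit, and PIWIL1 followed at 0.38. With 100 kb to each side, 4 windows were lower in DKO1, against 49.5% of autosomal windows, and 3 changed by over 0.5 in size (DAZL, MAEL and STRA8), against 25.3%. Autosomal windows with a negative HCT116 mean were also higher in DKO1 more often than not, in 58.4% of cases with a median change of 0.081. Those with a positive mean were higher in 43.5%, with a median of -0.054.

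**Figure D1:**
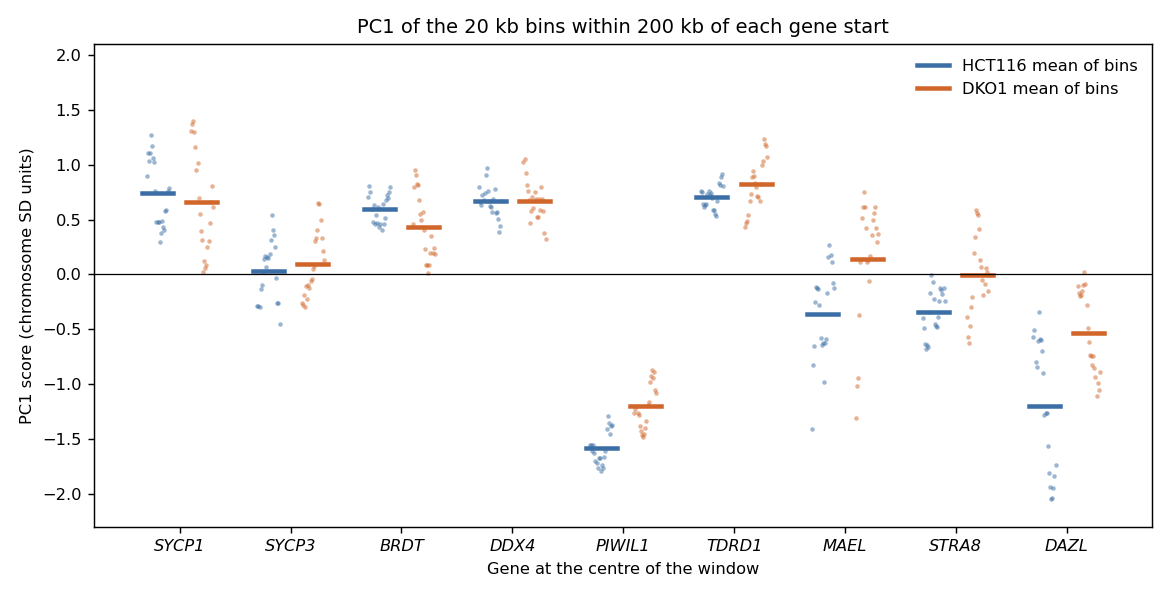
PC1 of the 21 bins of 20 kb within 200 kb of each gene start, on the y axis in chromosome SD units, for HCT116 (blue) and DKO1 (orange). Points are bins in map order and bars their means, and the bars of PIWIL1, MAEL, STRA8 and DAZL stand 0.33 to 0.66 higher in DKO1 while those of the other 5 genes differ by at most 0.17 in size.

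The sign of PC1 changed mostly around MAEL and STRA8. Of the 189 bins, 27 were B in HCT116 and A in DKO1, or 14.3%, against 4.40% of autosomal bins. Of these 27 bins, 12 lay around MAEL, 10 around STRA8, 4 around SYCP3 and 1 around DAZL. The opposite switch was found in 5 bins, or 2.65%, all around SYCP3, against 8.92% of autosomal bins. Bins of 1 window are neighbours in 1 map and are not independent, so these shares describe 9 places only. The window mean went from negative to positive in 1 of 9 windows, that of MAEL, against 4.57% of autosomal windows. With 500 kb to each side MAEL was negative in both lines, and STRA8 and SYCP3 went from negative to positive instead. It went from positive to negative in none, against 8.71%.

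Genes of chromosome synapsis lay in A or on its border. SYCP1, which encodes the transverse filament of the synaptonemal complex, starts at 115.397 Mb of chromosome 1, between SIKE1 and TSHB in the order of RefSeq genes. Its window averaged 0.74 in HCT116 and 0.66 in DKO1 on the PC1 scale, and all 21 bins were positive in both lines. Single bins ran from 0.30 to 1.27 in HCT116 and from 0.023 to 1.40 in DKO1, so the ranges overlapped almost fully. The difference of -0.081 was larger under other settings, at -0.23 with 100 kb to each side and -0.32 after a 10 Mb running mean was subtracted. SYCP3, a component of the meiotic chromosome axis, starts at 102.133 Mb of chromosome 12 and overlaps CHPT1. It sat near a compartment border, with window means of 0.032 in HCT116 and 0.093 in DKO1. A was found in 12 of its bins in HCT116 and in 11 in DKO1, but not in the same bins. The A interval around the SYCP3 start was 240 kb long in both lines, at 102020001 to 102260000 in HCT116 and at 102120001 to 102360000 in DKO1. A stretch of 100 kb before the start was thus A in HCT116 only, and another of 100 kb beyond it was A in DKO1 only. The mean change at SYCP3 turned negative in a narrower window of 100 kb to each side, at -0.11, and no direction can be given for it.

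Among the piRNA pathway genes, DDX4 and TDRD1 lay in A, while PIWIL1 and MAEL lay in B in HCT116. DDX4, the germ cell RNA helicase also known as VASA, starts at 55.034 Mb of chromosome 5 between SLC38A9 and IL31RA. Its window means were 0.66 in HCT116 and 0.67 in DKO1, and 11 of its 21 bins were higher in DKO1. The sign of this small difference depended on the window, with -0.10 at 100 kb and -0.11 at 500 kb to each side, and -0.32 after a 10 Mb running mean was subtracted. It was 0.23 after subtraction of the chromosome median and 0.13 in the bin holding the start. TDRD1, a Tudor domain protein that binds PIWI proteins, starts at 115.939 Mb of chromosome 10 and neighbours VWA2. It had means of 0.71 and 0.82, with 17 of 21 bins higher in DKO1. After the median of the chromosome was subtracted in each line, the difference at TDRD1 was 0.34 in place of 0.12, and after subtraction of the running mean it was 0.049.

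PIWIL1, a PIWI protein of the male germ line, had the lowest mean PC1 of the 9 windows in both lines. It starts at 130.822 Mb of chromosome 12, overlapping RIMBP2. Its bins lay between -1.79 and -1.29 in HCT116, with a median of -1.61, and between -1.49 and -0.87 in DKO1, with a median of -1.22. All 21 bins were higher in DKO1, although the 2 ranges overlapped, and none was positive in either line. The mean was -1.58 in HCT116 and -1.20 in DKO1, a difference of 0.38. PIWIL1 lay inside a B interval of 5640 kb in HCT116 and 5660 kb in DKO1, which ended 438 kb beyond the start in both. Subtraction of a 10 Mb running mean reduced the difference to 0.061.

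MAEL, which is required for transposon silencing in the germ line, was the gene whose 200 kb window changed sign in its mean. It starts at 166.945 Mb of chromosome 1, between ILDR2 and GPA33. Its bins ran from -1.41 to 0.26 in HCT116, with a median of -0.25, and from -1.31 to 0.75 in DKO1, with a median of 0.36. The ranges overlapped widely, and both lines had a steep slope with the lowest scores at the low end of the map. A was found in 4 bins in HCT116 and in 16 in DKO1. The window mean was -0.36 in HCT116 and 0.14 in DKO1, with 18 of 21 bins higher in DKO1. A run of 8 bins at 166820001 to 166980000, which holds the start, had a mean of -0.44 in HCT116 and 0.41 in DKO1. In HCT116 the start lay in a B interval of 1180 kb, 95 kb from its end, and in DKO1 in an A interval of 160 kb. That A interval ended at 1 bin, 45 kb beyond the start, with a DKO1 score of -0.056. From 65 to 265 kb beyond the start the DKO1 bins were positive again. The difference was 0.79 within 100 kb to each side and 0.15 within 500 kb, so it was larger close to the start. Over 500 kb the mean was negative in both lines, at -0.51 and -0.36.

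The genes of entry into meiosis and of germ cell RNA binding both lay in B in HCT116. STRA8, which is induced by retinoic acid at the entry into meiosis, starts at 134.917 Mb of chromosome 7 between WDR91 and CNOT4. All 21 bins around it were negative in HCT116, from -0.68 to -0.0062 with a median of -0.35. In DKO1 they ran from -0.63 to 0.59 with a median of -0.0071, and 10 were positive. The mean was -0.34 in HCT116 and -0.0058 in DKO1, with 19 of 21 bins higher in DKO1. As at MAEL, a run of 8 bins holding the start changed sign, at 134820001 to 134980000, with means of -0.27 and 0.35. The HCT116 B interval around the STRA8 start measured 500 kb. Unlike in the 200 kb window, the mean at STRA8 changed sign within 100 kb (-0.32 and 0.22) and within 500 kb (-0.13 and 0.23). Chromosome 7 differed between the lines along its length (r = 0.77 over its bins), and the size of the difference at STRA8 depended on the centring. It was 0.78 after subtraction of the chromosome median and 0.097 after subtraction of a 10 Mb running mean.

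DAZL, an RNA-binding protein that controls translation in germ cells, had the largest change of the 9 windows at 200 kb. MAEL exceeded it at 100 kb to each side (0.79 against 0.62) and after subtraction of the running mean (0.70 against 0.65), and STRA8 after that of chromosome medians (0.78 against 0.62). It starts at 16.647 Mb of chromosome 3, runs towards lower positions and lies between RFTN1 and PLCL2. The bins around it lay between -2.04 and -0.34 in HCT116, with a median of -1.26, and between -1.11 and 0.018 in DKO1, with a median of -0.62. All 21 bins were higher in DKO1, while the ranges of the lines overlapped. The window averaged -1.20 in HCT116 and -0.54 in DKO1, and the difference of 0.66 stayed between 0.51 and 0.66 under the other windows and centrings. Only 1 bin changed sign, so the DAZL locus stayed in B with a less negative score. The B interval around it measured 1160 kb in HCT116 and 1200 kb in DKO1.

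BRDT, a bromodomain reader of acetylated histones in spermatogenesis, had the lowest change of the 9 windows at 200 kb. SYCP1 was lower at 100 kb (-0.23 against -0.15), and both SYCP1 and DDX4 were lower after subtraction of the running mean (-0.32 each against -0.16). It starts at 92.415 Mb of chromosome 1 between TGFBR3 and EPHX4, with means of 0.60 in HCT116 and 0.43 in DKO1. All bins were positive in both lines, and 7 of 21 were higher in DKO1. The difference of -0.17 lay mainly beyond the start, where bins of DKO1 went down to 0.014 while the lowest bin in HCT116 was 0.41. The A interval that holds the BRDT start measured 3820 kb in HCT116 and 720 kb in DKO1. In DKO1 it ended where the bins from 235 to 295 kb beyond the start lay just below 0 (-0.15 to -0.040). The next bin, at 315 kb, was positive again (0.12), so these lengths depend on where 0 lies.

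**Figure D2:**
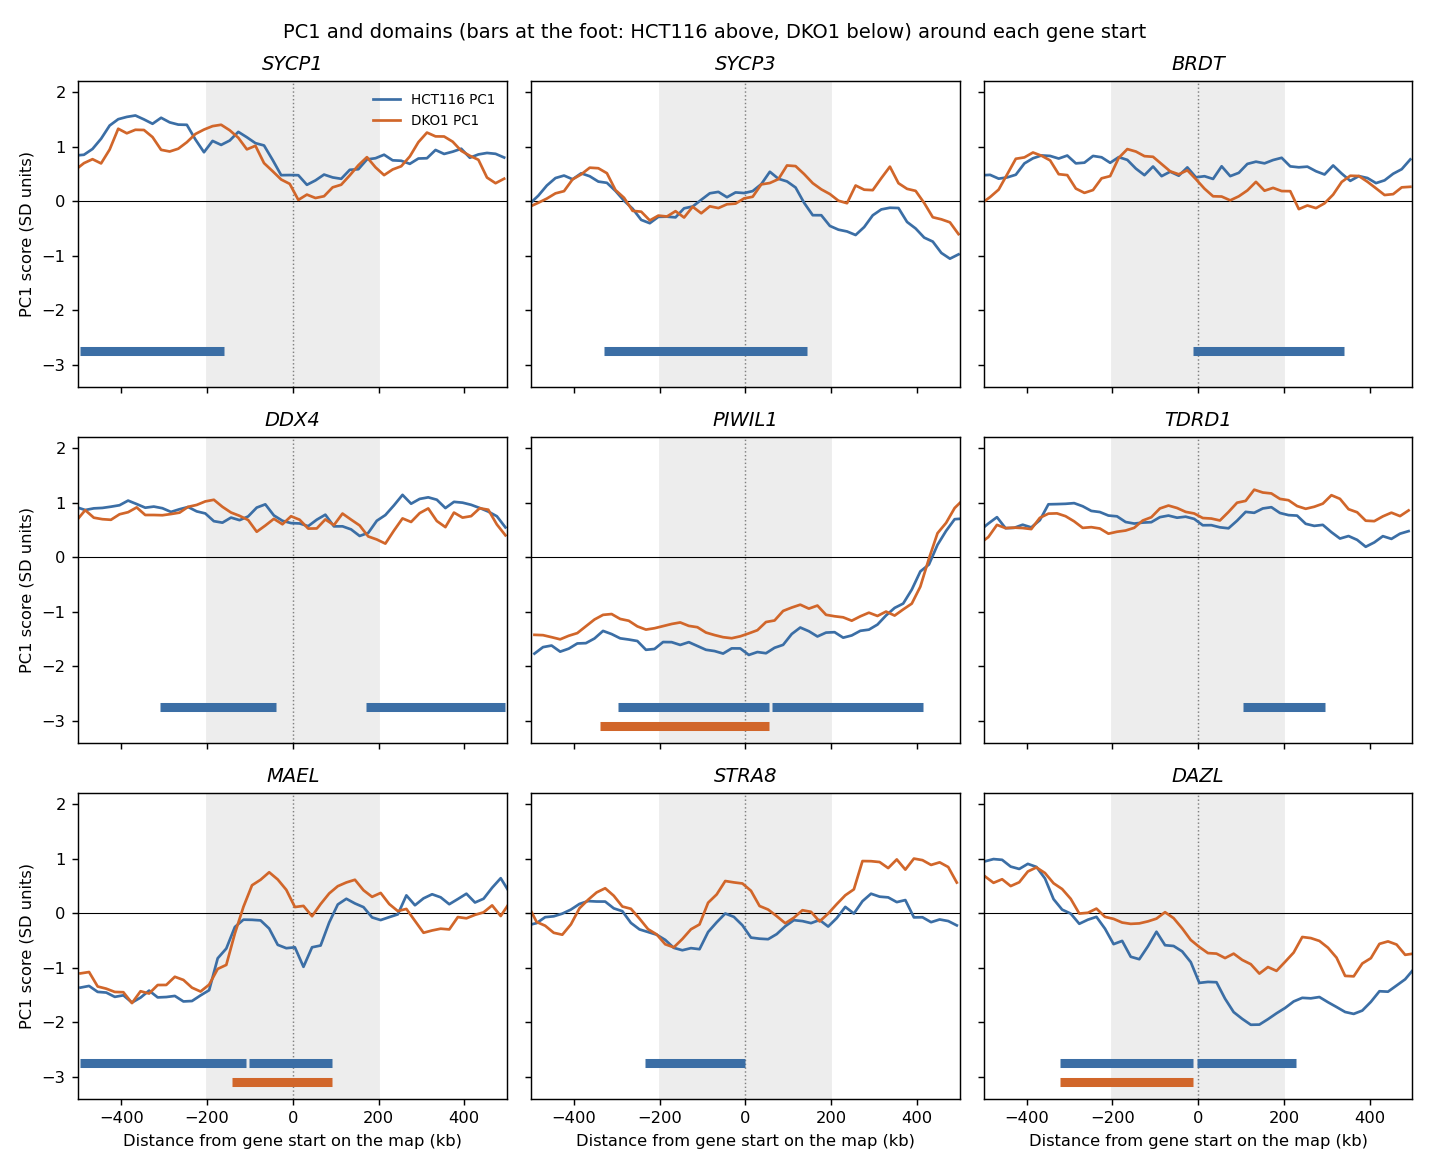
PC1 along the map around each of the 9 gene starts (x axis, distance in kb, with 0 at the start and the 200 kb to each side in grey) in HCT116 (blue) and DKO1 (orange), with the deposited domains that touch the window as bars at the foot. At MAEL and STRA8 the DKO1 line crosses 0 over a run of 160 kb that holds the start, at DAZL and PIWIL1 it runs above the HCT116 line throughout the grey window, and a DKO1 domain appears at DAZL, MAEL and PIWIL1 only.

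Each change was then ranked among autosomal windows of the same width whose HCT116 mean PC1 lay within 0.1 of that of the gene, leaving out windows that overlap its own. The percentile is the share of like windows with a smaller signed change. Like windows overlap each other along the map, so their number gives no precision. MAEL ranked highest, at percentile 91.0 of 7931 like windows, whose median change was -0.16 and of which 36.7% were higher in DKO1. STRA8 followed at 84.9 of 7887 windows with a median of -0.17. DAZL came next at 81.0 of 5040 windows, whose own median was 0.24. The remaining percentiles were 71.8 for TDRD1, 70.7 for SYCP3, 67.3 for PIWIL1, 62.6 for DDX4, 47.1 for SYCP1 and 44.9 for BRDT. None of the 9 lay in the lowest 5% or the highest 5% of its like windows. Thus 7 of 9 lay above the median of their like windows, and the median percentile was 70.7.

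The ranks put the size of a change beside what is usual at its level. Around PIWIL1 84.2% of like windows were higher in DKO1, and around DAZL 76.0%, so that a higher PC1 in DKO1 was the usual direction at such low scores. At the levels of MAEL and STRA8, 36.7% and 37.1% of like windows were higher in DKO1. The direction at these genes was thus the less frequent one. The same held at SYCP3 (34.4%), DDX4 (38.5%) and TDRD1 (41.4%), whose 200 kb windows were also higher in DKO1, by smaller amounts. At SYCP3 and DDX4 this direction turned in other settings, so it is not settled there. Over 9 settings of the window, the average, the centring and the like windows, MAEL ranged from percentile 69.4 to 99.0, STRA8 from 74.8 to 92.7 and DAZL from 72.7 to 88.7. SYCP3 and TDRD1 also lay above 50 in every one of these settings. PIWIL1 did so in 7 of 9 and DDX4 in 6 of 9. SYCP1 lay below 50 in all 9 settings, and BRDT in 8. MAEL lay above percentile 95 in 3 of them, with 97.0 at 100 kb to each side, 96.6 with the median over bins and 99.0 after the 10 Mb running mean was subtracted.

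**Figure D3:**
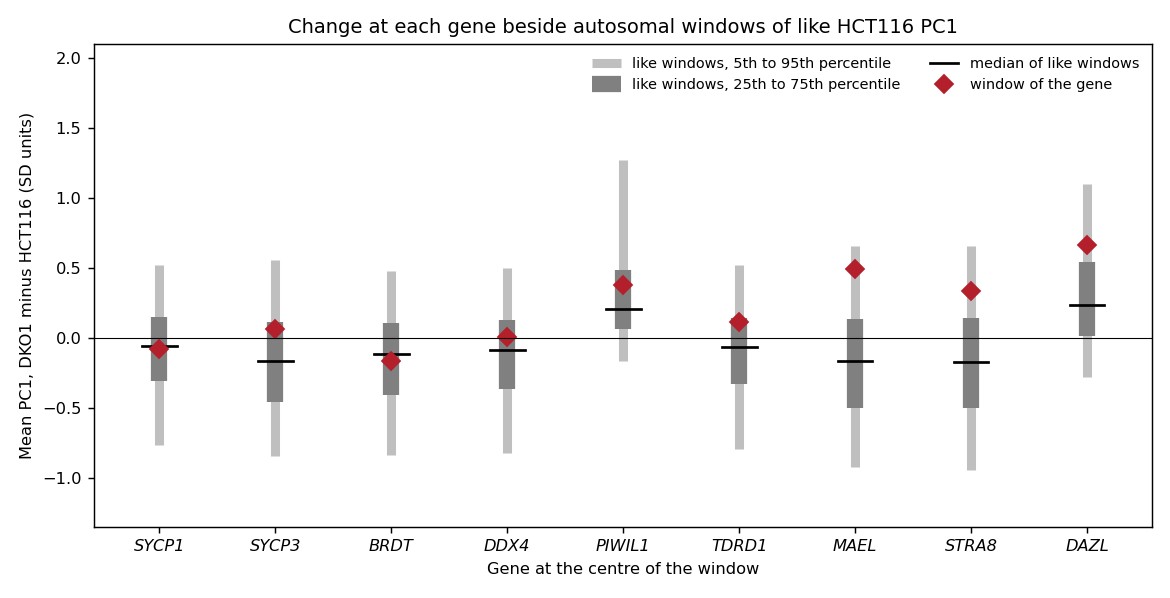
Change in mean PC1, DKO1 minus HCT116, of each gene's window (red diamonds) beside the autosomal windows whose HCT116 mean lay within 0.1 of it (grey bars, with the median as a black line). Every diamond lies between the 5th and 95th percentile, and those of MAEL, STRA8 and DAZL lie above the 75th.

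In the bin that holds the start itself, MAEL and STRA8 differed most. Its rank and the measure of local change given here were added after the profiles were seen. At STRA8 this bin had a PC1 of -0.22 in HCT116 and 0.54 in DKO1, a difference of 0.77 against 0.33 for the window. At MAEL it had -0.63 and 0.11, a difference of 0.74 against 0.49. These 2 starts were the only ones among the 9 that lay in different compartments in the 2 lines. Of autosomal bins, 4.40% were B in HCT116 and A in DKO1, and 8.92% the reverse. At DAZL the start bin (-1.28 and -0.62) and at PIWIL1 (-1.79 and -1.40) differed by about as much as their windows. Among single autosomal bins of like HCT116 PC1 the start bins of STRA8, MAEL and DAZL ranked at percentiles 96.6, 93.0 and 78.0. The change over the start bin and its neighbours, minus that over the rest of the window, was 0.56 at MAEL and 0.49 at STRA8. Among like windows these values ranked at percentiles 99.0 and 98.2. At the other 7 genes it lay between -0.23 (SYCP3) and 0.072 (BRDT), at percentiles from 15.4 to 65.4. Since MAEL and STRA8 were picked for this feature, the ranks describe them and support nothing. Their promoters, printed above, held the most CpG of the 9 genes and none, respectively.

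**Figure D4:**
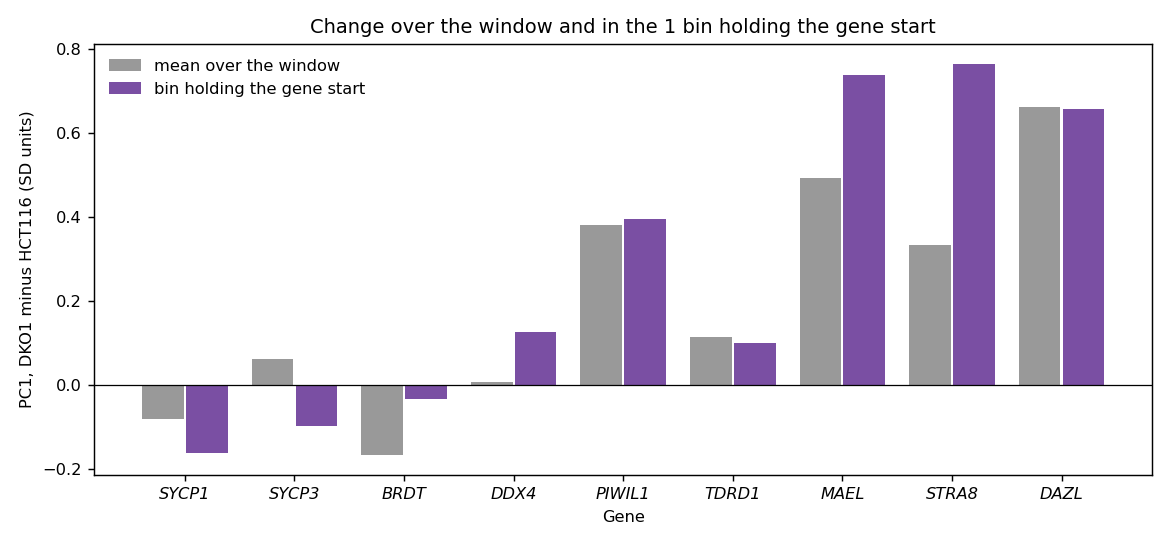
Difference in PC1, DKO1 minus HCT116, as the mean over the window (grey bars) and in the 1 bin of 20 kb that holds the gene start (purple bars). At MAEL and STRA8 the start bin differs by 0.74 and 0.77, more than the window means of 0.49 and 0.33, while at DAZL and PIWIL1 both bars are nearly equal.

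The shape of the PC1 profile inside a window was compared by the correlation between the lines across its bins. It was highest at DAZL (r = 0.96, n = 21 bins), SYCP1 (0.89) and PIWIL1 (0.82). MAEL had 0.69, STRA8 0.64 and TDRD1 0.61. Lower values were found at SYCP3 (0.48), BRDT (0.15) and DDX4 (0.12). The median over 6183 non-overlapping autosomal windows was 0.58. Neighbouring bins share contacts. PC1 was nearly flat in HCT116 at DDX4 (SD over bins 0.14) and BRDT (0.13), but also at TDRD1 (0.11) and PIWIL1 (0.15), where the correlation was higher. Why the correlations differed was not tested. Single bins were higher in DKO1 by 0.24 to 1.11 at DAZL and by 0.19 to 0.62 at PIWIL1. The correlation does not show amplitude, and at DAZL the SD over bins was 0.59 in HCT116 and 0.38 in DKO1.

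Most domains around these genes were listed in HCT116 only. All 9 windows were touched by at least 1 HCT116 domain, against 64.5% of autosomal windows. A DKO1 domain touched 3 of the 9, those of DAZL, MAEL and PIWIL1, against 32.8%. HCT116 domains held 6 of the 9 starts, against 44.4% of autosomal bins, and DKO1 domains held 2, against 18.7%. In all 13 HCT116 domains and 3 DKO1 domains touched the windows. Of the 13, 3 were matched by a DKO1 domain at a reciprocal overlap of 80%, or 23.1%, against 35.9% of all autosomal HCT116 domains. All 3 DKO1 domains were matched in HCT116, against 84.0%. These shares rest on few domains, and the whole lists hold 4289 domains in HCT116 and 1823 in DKO1.

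The 3 matched domains all lay at genes with a negative HCT116 window. At MAEL the start lay in an HCT116 domain of 200 kb at 166840001 to 167040000 of chromosome 1, and in a DKO1 domain of 240 kb that shared its end and began 40 kb earlier. PC1 averaged -0.48 in HCT116 and 0.36 in DKO1 over this HCT116 domain, so the domain was kept while its compartment score changed sign. At PIWIL1 the start lay in domains of 360 kb in HCT116 and 400 kb in DKO1, which shared the end at 130880000 of chromosome 12. Their mean PC1 stayed low, at -1.65 in HCT116 and -1.31 in DKO1 over the HCT116 domain. At DAZL a domain of 320 kb, at 16320001 to 16640000 of chromosome 3, was listed in both lines with the same ends. It ends 7 kb before the DAZL start on the map, on the side of the gene body. The neighbouring HCT116 domain of 240 kb, which holds the start itself and had a mean PC1 of -1.69, had no counterpart in DKO1. On the autosomes as a whole, domains with a negative mean PC1 were matched in 17.0% of cases and those with a positive mean in 44.9%.

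The HCT116 domains at the other 6 genes had no match in DKO1. STRA8 starts 3 kb inside the end of a domain of 240 kb, and BRDT 15 kb inside the beginning of one of 360 kb, distances below the 40 kb grid of the lists. SYCP3 lay within a domain of 480 kb. Around SYCP1, DDX4 and TDRD1 the HCT116 domains lay beside the start, at distances of 157, 34 and 101 kb. In DKO1 the nearest domain boundary was 237 kb from STRA8, 594 kb from DDX4, 865 kb from BRDT, 923 kb from SYCP1, 1173 kb from SYCP3 and 3579 kb from TDRD1. Inside the windows, 4 of 11 HCT116 boundaries were found in DKO1 within 40 kb, or at the same position in 3 cases, against 45.2% of autosomal boundaries. All 4 DKO1 boundaries were found in HCT116, against 92.5%. The 4 genes whose windows had a clearly positive mean PC1 in both lines (SYCP1, TDRD1, DDX4 and BRDT) had no DKO1 domain within their windows. Neither did SYCP3 nor STRA8, and 67.2% of autosomal windows had none.

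A window of 420 kb holds neighbouring genes as well, so its values are those of the surroundings and not of the named gene alone. PC1 was taken as centred on each chromosome's mean, and where 0 lies decides which bins count as switched. Subtracting chromosome medians moved the median change of all autosomal windows from 0.0036 to 0.12 and the share of higher windows from 50.4% to 62.7%.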

How the data were processed

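The deposited files are 1 PC1 track in 20 kb bins and 1 domain list on a 40 kb grid for each cell line. Per the labels, the 3 replicates of a line share these files, so they were taken as pooled. HiC-Pro, HOMER 4.6 and the build hg19 (GRCh37) are listed, without a role, per the submitters' processing notes. The caller of the domains is not given in the sources used here. In each line, the median over chromosomes of the deposited PC1 score was 0 for the mean and 1 for the SD. The score was therefore taken as scaled by chromosome before deposit.

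Bins present in both tracks were joined. A window is the bin holding the start and 10 bins to each side, and autosomal windows needed values in 80% of bins. Starts were read from the rule that defines the genes, to the nearest kb. All 9 genes are named. The members and lists were chosen with earlier results of these data known. Other germline genes were not analysed here, as their hg19 positions were not at hand. Neighbouring genes and promoters came from RefSeq tables on GRCh38.p14, and no position was converted. The nearest promoter to the gene's outer end was used. The code for windows and ranks was tested on simulated data, with 30 of 30 planted windows recovered. The planted shifts were larger than any window change of the 9 genes, so this checks the code only. Computations used Python 3.11.15, numpy 2.4.6 and pandas 2.3.3.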

Additional observations from a re-analysis of the deposited data

How the results depend on the processing

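No paired analysis was possible because the replicates of a line share 1 pooled file, which also means that none could be left out. The ranks of start bins, the local change, and the ranks of single genes with the median over bins, chromosome medians or the running mean were chosen after seeing the data. Of the 9 windows, 4 in place of 2 were lower in DKO1 at 100 kb to each side and with a 10 Mb running mean subtracted, against 49.5% and 50.95% of autosomal windows. A change over 0.5 in size was found in 3 windows in place of 1 at 100 kb and with chromosome medians subtracted (25.3% and 27.1% of autosomal windows), and in 2 with the median over bins and with the running mean (25.4% and 12.55%), against 23.7% in the main setting. The sign of the window mean differed in 2 in place of 1 at 100 kb and with chromosome medians (MAEL and STRA8), and at 500 kb, where these were STRA8 and SYCP3 and the change of sign at MAEL was lost. The shares of autosomal windows were 12.9% at 100 kb, 12.0% with chromosome medians and 14.5% at 500 kb, against 13.3% in the main setting. In the lowest or highest 5% of like windows there was 1 in place of 0 at 100 kb, with the median over bins and with the running mean, MAEL each time. Counting only domains that hold the start gave 6 in HCT116 in place of 13. The change turned negative at SYCP3 (-0.11 at 100 kb, -0.022 with the median over bins, -0.054 with the running mean and -0.098 in the start bin) and at DDX4 (-0.10 at 100 kb, -0.11 at 500 kb and -0.32 with the running mean), and the cause was not tested. At the other 7 genes it kept its sign in all 6 alternatives. Counts of matched domains and boundaries stayed within 1.5 times at the other overlaps and tolerances, and leaving out domains over 2 Mb changed none.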
